A study of Mus musculus with 48 samples.

Results

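The genomic sites bound by CTCF carrying R448Q were compared with those bound by CTCF carrying H455R, mutations 7 residues apart in the zinc finger region of the same protein. Sites are the peaks of the FLAG list of each mutant, with identical intervals merged into 1 peak that keeps the highest value. This gave 19403 R448Q peaks and 3855 H455R peaks, together 23258 of the 188715 peaks in the 10 FLAG lists of the series. A peak was called shared when it overlapped a peak of the other mutant by 1 bp or more, and otherwise single-mutant.

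The study asked how CTCF mutations act when the mutant is the transgenic source of CTCF. Mouse embryonic stem cells (E14Tg2a, strain 129/Ola) carrying an auxin degron on endogenous CTCF were given a doxycycline-inducible transgene, either WT or 1 of 9 mutants, each as a separate cell line. Transgenic CTCF was mapped with FLAG beads, cohesin with an SMC3 antibody, and total CTCF in WT transgene cells with a CTCF antibody, all by ChIPmentation, in which a transposase adds the sequencing adapters to immunoprecipitated chromatin. There are 48 samples, 2 replicates in each of 24 groups, and each peak list pools both replicates of a group. Every group used here held the WT, R448Q or H455R transgene or, for comparison, that of the 7 other mutants, and received 500 µM indole-3-acetic acid (the auxin that triggers degradation) and 1 µg/ml doxycycline for 2 days. The 1 exception is the CTCF antibody list of untreated WT cells. Endogenous CTCF left after treatment was not measured in these lists, and with 1 cell line per mutant a mutation and its line cannot be told apart.

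CTCF binds DNA through an array of zinc fingers, each of which holds a zinc ion with cysteine and histidine side chains and touches a few bases of a long, well-conserved motif. Cohesin, the ring complex of which SMC3 is a core subunit, extrudes chromatin loops and halts at bound CTCF. In embryonic stem cells CTCF sites therefore lie at many loop anchors and domain borders, and also at promoters.

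Promoters give a view of the sequence at the peaks, and 7 windows of 200 bases ending at an annotated transcription start are shown for strong peaks of each class that overlap such a window. They were picked to include windows with and without the motif core and say nothing of its frequency. They are from RefSeq, build GRCm38.p6, the assembly that mm10 names. Capitals mark a 12-base core of the CTCF motif, searched on both strands: CCA, any 2 bases, AG, any 2 bases, then GGC. Only exact matches were marked, so a window without capitals can still hold a near match. The first 3 overlapped shared peaks: Agfg1 (chr1:82839260-82839459 on the plus strand), Gm15418 (chr8:11187529-11187728 on the plus strand) and Gaa, the lysosomal alpha-glucosidase (chr11:119267763-119267962 on the plus strand).
Agfg1: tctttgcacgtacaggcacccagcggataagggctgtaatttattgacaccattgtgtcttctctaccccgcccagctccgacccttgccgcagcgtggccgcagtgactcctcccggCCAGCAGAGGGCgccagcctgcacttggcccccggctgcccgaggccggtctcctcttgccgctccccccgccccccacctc
Gm15418: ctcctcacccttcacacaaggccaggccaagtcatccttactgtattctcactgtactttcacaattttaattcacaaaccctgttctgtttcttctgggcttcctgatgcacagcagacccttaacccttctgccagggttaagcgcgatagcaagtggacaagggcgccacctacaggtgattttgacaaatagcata
Gaa: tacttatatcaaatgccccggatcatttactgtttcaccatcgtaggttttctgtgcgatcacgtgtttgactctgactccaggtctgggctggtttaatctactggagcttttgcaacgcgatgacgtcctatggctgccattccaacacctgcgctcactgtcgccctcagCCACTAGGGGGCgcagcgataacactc
The next overlapped R448Q-only peaks: Gm41414 (chr16:5306638-5306837 on the plus strand) and Gm12273 (chr11:61950717-61950916 on the plus strand).
Gm41414: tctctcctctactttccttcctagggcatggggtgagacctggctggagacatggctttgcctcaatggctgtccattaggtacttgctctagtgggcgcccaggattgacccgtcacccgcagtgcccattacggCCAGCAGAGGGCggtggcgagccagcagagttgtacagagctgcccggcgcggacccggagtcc
Gm12273: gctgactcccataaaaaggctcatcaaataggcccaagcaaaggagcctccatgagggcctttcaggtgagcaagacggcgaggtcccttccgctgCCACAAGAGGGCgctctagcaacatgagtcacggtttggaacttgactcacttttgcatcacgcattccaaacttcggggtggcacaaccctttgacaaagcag
The last overlapped H455R-only peaks: Gcnt1, which builds branched O-glycans (chr19:17356668-17356867 on the minus strand), and Dpep3, a membrane dipeptidase (chr8:105979420-105979619 on the minus strand).
Gcnt1: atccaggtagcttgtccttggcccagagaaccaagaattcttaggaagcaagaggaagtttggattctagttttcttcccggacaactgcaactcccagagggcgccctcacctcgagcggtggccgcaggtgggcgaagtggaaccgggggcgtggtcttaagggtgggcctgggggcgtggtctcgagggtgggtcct
Dpep3: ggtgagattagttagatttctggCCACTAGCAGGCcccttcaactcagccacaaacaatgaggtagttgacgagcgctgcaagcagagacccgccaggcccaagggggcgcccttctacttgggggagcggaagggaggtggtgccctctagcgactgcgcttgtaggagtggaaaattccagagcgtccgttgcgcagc
The peak value used below is the number the authors' peak caller gave each peak, and it ranks peaks only within a list. The Agfg1 peak had a value of 30.57 in the R448Q list and 4.58 in the H455R list, and the Gaa peak 12.86 and 2.53. The R448Q-only peaks at Gm41414 and Gm12273 had values of 21.32 and 12.83 and were present in the lists of all 7 other mutants and WT. The H455R-only peaks at Gcnt1 and Dpep3 had values of 6.63 and 3.63, lay at treated CTCF antibody peaks, and were absent from the WT FLAG list. The marked core lay inside the peak in the other windows that hold one, and 63 bp outside the peak at Dpep3.

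Over all 32817 promoter windows, which run from 250 bases before to 50 bases after a start, 2.43% held these letters anywhere in the window, inside a peak or not. Of the 524 windows under R448Q-only peaks, 108 held them (20.6%, 95% Wilson interval 17.4 to 24.3), close to the 21.4% of the 729 windows under WT FLAG peaks. These sets overlap, since 429 of the 524 windows (81.9%) also lay under WT FLAG peaks. The 202 windows under shared peaks held them in 20 cases (9.90%, 6.50 to 14.8), below the R448Q-only windows. All 202 lay at a treated CTCF antibody peak, as did 507 of the 524 R448Q-only windows (96.8%). Over all 4815 windows at such antibody peaks, 7.68% (6.97 to 8.47) held the letters. Under H455R-only peaks there were 49 windows, of which 2 held the letters (4.08%, 1.13 to 13.7), and 39 lay at a treated CTCF antibody peak. A match is a description of these windows only and does not locate binding. All intervals here and below are over peaks or windows and cover counting error only, since the lists used here pool replicates and allow no test between genotypes.

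Both lists were uneven over the chromosomes, which bears on the counts that follow. Chromosome 8 held 1163 of the 3855 H455R FLAG peaks (30.2%), against 9.81% of R448Q peaks, 5.50% of WT peaks and 5.34% to 7.36% over the 8 FLAG lists other than R448Q and H455R. The H455R SMC3 list showed the same chromosome raised, at 12.4% of peaks against 3.73% in WT. Of the 858 H455R-only peaks on chromosome 8, 7 lay in its first 30 Mb (0.816%), where WT FLAG had 21.5% of its chromosome 8 peaks. The R448Q FLAG list was high on chromosomes 1, 3, 8 and 11, with 12.2% of its peaks on chromosome 1 against 6.13% in WT, 10.4% in K365T and 9.49% in Q418R, and its SMC3 list held 11.3% there against 4.63% in WT SMC3. Other lists were uneven too: R377H held 14.7% and K365T 11.7% of its peaks on chromosome 11, above the 9.10% of R448Q and the 7.11% of WT. What raised these chromosomes was not tested. Results are therefore given with and without chromosome 8.

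**Figure D1:**
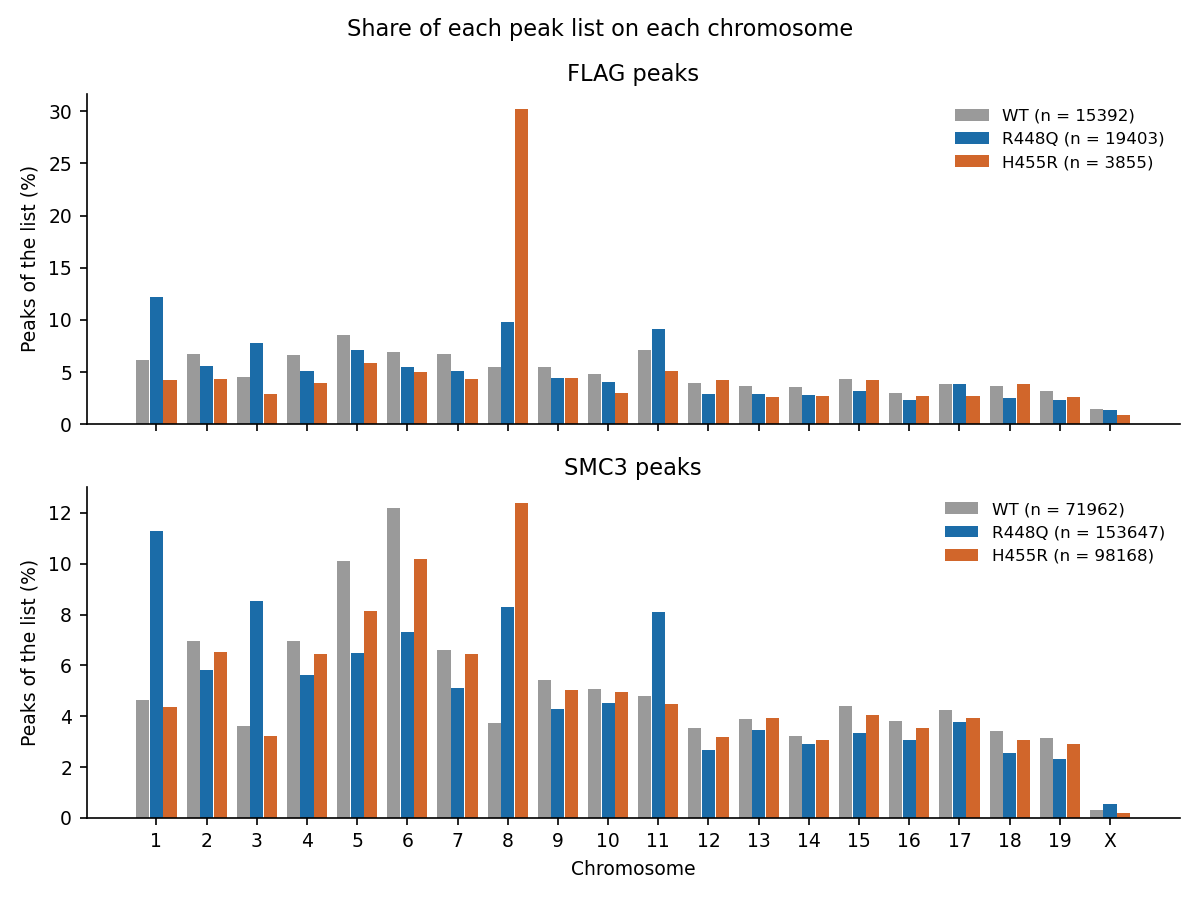
Percent of each list's peaks on each chromosome (x axis; chromosome Y not drawn) for FLAG peaks (upper panel) and SMC3 peaks (lower panel) in WT (grey), R448Q (blue) and H455R (orange) cells. H455R stands at 30.2% on chromosome 8 in FLAG and 12.4% in SMC3, and R448Q is above WT on chromosomes 1, 3, 8 and 11 in both panels.

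Many H455R sites were R448Q sites, while few R448Q sites were H455R sites. Of the 3855 H455R peaks, 2003 overlapped an R448Q peak (52.0%, 50.4 to 53.5). Of the 19403 R448Q peaks, 1982 overlapped an H455R peak (10.2%, 9.80 to 10.6). The lists differ in length, so equal numbers were also compared: among the 3855 highest peaks of each, 26.6% of H455R and 26.1% of R448Q peaks were shared. Without chromosome 8 the H455R share rose to 63.1% (61.2 to 64.9) and the R448Q share was 9.62% (9.20 to 10.1). On chromosome 8 itself 26.2% of H455R peaks were shared. Over the 19 other chromosomes with 20 or more peaks in both lists, the H455R share ran from 39.9% on chromosome 12 through a median of 63.3% to 82.7% on chromosome 1, so chromosome 8 was below each of them.

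The class a peak fell into was seldom decided by a few bases. The 2006 overlapping pairs shared a median of 188 bp, and 2 pairs overlapped by 10 bp or less. Outside the threshold, 68 of the 1852 H455R-only peaks and 162 of the 17421 R448Q-only peaks lay within 500 bp of a peak of the other mutant, the nearest at 25 bp. The median gap from an H455R-only peak to the nearest R448Q peak was 40.5 kb. Asking instead for 50% reciprocal overlap cut the shares to 26.5% and 5.27%. R448Q peaks were wider than H455R peaks, with medians of 230 and 156 bp.

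Shared peaks had higher values and were wider than single-mutant peaks in both lists. In the R448Q list they had a median value of 7.28 against 3.83 for R448Q-only peaks, and a median width of 408 against 217 bp. In the H455R list the medians were 3.57 and 2.89, and the widths 210 and 123 bp. Almost all peaks in the highest decile of the H455R list were shared, 97.9% (96.0 to 98.9), and 29.5% of the lowest decile. In the R448Q list the share ran from 4.02% in the second lowest decile to 35.4% in the highest. Even in that highest R448Q decile, 64.6% of peaks had no H455R peak. The highest H455R-only peak had a value of 6.63 in a list that reached 25.72, whereas R448Q-only peaks reached 30.17 in a list with a maximum of 47.25. The medians without chromosome 8 were 7.73 and 3.88 in the R448Q list and 3.58 and 2.87 in the H455R list.

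**Figure D2:**
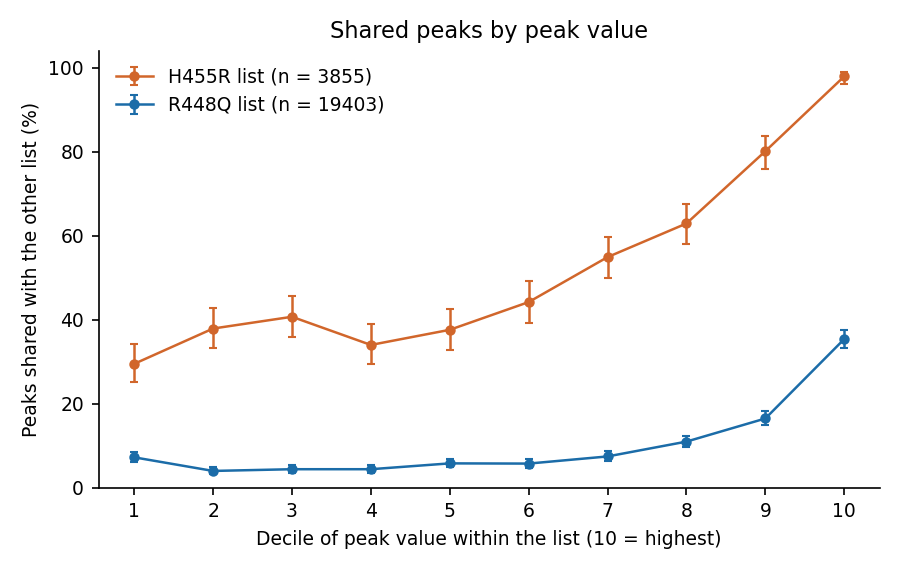
Percent of peaks shared with the other mutant (y axis) in each decile of peak value within its own list (x axis, 10 the highest), for H455R (orange) and R448Q (blue); bars are 95% Wilson intervals. Sharing reaches 97.9% in the highest H455R decile and 35.4% in the highest R448Q decile.

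Within the shared set the order of strength was only loosely kept. The Spearman correlation of the peak values over the 2006 pairs was 0.321, and 0.324 over the 1700 pairs off chromosome 8, a description over sites that share their libraries. In 1049 pairs both peaks were in the upper 50% of their lists, and 80.0% of these had a WT FLAG peak and 98.1% a treated CTCF antibody peak. In 453 pairs the R448Q peak was in the upper and the H455R peak in the lower 50%, with WT FLAG at 94.0%. In the 264 pairs of the opposite kind, WT FLAG was at 21.6% and the treated CTCF antibody at 60.2%, and 31.4% of them lay on chromosome 8 against 10.3% of pairs high in both.

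**Figure D3:**
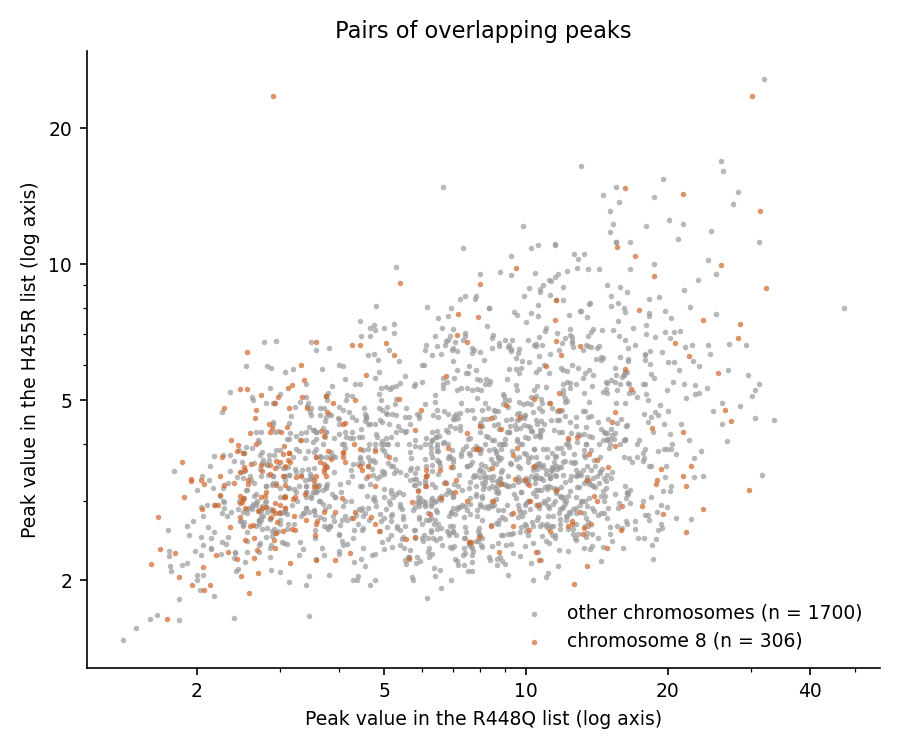
Peak values of the 2006 overlapping pairs in the R448Q list (x axis) and the H455R list (y axis), both on log axes, with pairs on chromosome 8 in orange and all others in grey. Values rise together loosely, with a Spearman correlation of 0.321.

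The strongest shared sites, taken by the sum of their ranks, were bound in nearly every line. Ccdc60, a coiled-coil protein gene, had a shared peak 8.48 kb from its span with values of 25.72 in H455R (rank 1) and 32.0 in R448Q (rank 4). A shared peak inside Arhgap10, which encodes a GTPase-activating protein, had values of 23.53 and 30.17, but was found in only 3 of the 7 other mutants and had no WT SMC3 peak. At Mtmr6, a phosphoinositide phosphatase gene, the values were 16.88 and 25.93, at a gene end. Frg1, Nucb2, Dmrt3 and Wnt4 were the nearest protein-coding genes of 4 more. These 7 peaks had WT FLAG, CTCF antibody and SMC3 of both mutants, and 5 of them were in all 7 other mutants.

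Pairs with discordant ranks showed both directions. The pair with the widest gap towards H455R, with Tshz1 as the nearest protein-coding gene, stood at the 89.7 percentile in H455R and the 5.1 percentile in R448Q, and had WT FLAG and 6 of the 7 other mutants but no CTCF antibody or SMC3 peak. Inside Wwc2, a scaffold gene of the Hippo pathway, the H455R peak stood at the 94.1 percentile of its list (value 6.40) and the R448Q peak at the 9.7 percentile (2.56), with no WT FLAG peak and none in the other 7 mutants. Sema3d, a secreted axon guidance factor, had percentiles of 92.9 and 9.3, and Pard3, a cell polarity scaffold, 87.0 and 3.7, both also without WT FLAG. In the other direction, Gstm6, a glutathione transferase gene, had an H455R peak at the 8.0 percentile (2.23) and an R448Q peak at the 98.9 percentile (18.63), with WT FLAG and all 7 other mutants. Adgrg1, an adhesion receptor gene, had 5.6 and 96.0, and Rabl6, a Rab-like GTPase gene, 7.3 and 96.9.

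R448Q-only peaks lay mostly at CTCF antibody peaks of WT cells, with a lower share on chromosome 8. Of all R448Q peaks 59.4% overlapped a WT FLAG peak, and the share was 58.2% (57.4 to 58.9) at the 17421 R448Q-only peaks against 70.4% (68.4 to 72.4) at shared ones, a difference of 12.3 percentage points (Newcombe interval 10.1 to 14.4). A treated CTCF antibody peak lay at 82.5% of all R448Q peaks, 82.0% of R448Q-only and 86.4% of shared ones. The antibody peaks there were themselves strong, with a median percentile within their list of 93.2 at R448Q-only and 94.9 at shared peaks. Averaged over quartiles of R448Q peak value, the order turned, and the shared minus R448Q-only difference was -7.37 points for WT FLAG and -8.50 points for the CTCF antibody. In the lowest quartile, though, WT FLAG was still higher at shared peaks, at 37.0% against 29.0%, a difference of 8.06 points (2.29 to 14.2), while the antibody was at 35.9% against 58.5%. Without chromosomes 1, 3, 8 and 11 the antibody lay at 93.4% of shared and 93.8% of R448Q-only peaks, a difference of -0.341 points. On chromosome 8 it lay at 54.0% and 62.5%. In the highest quartile the shares were nearly level, with WT FLAG at 92.1% of shared and 94.5% of R448Q-only peaks and the CTCF antibody at 99.7% and 99.8%.

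The strongest R448Q-only peaks show how strong a site without an H455R peak could be. The peak in Osbpl3, an oxysterol-binding protein gene, had a value of 30.17 (rank 12 of the list), and that beside Hbq1a, a haemoglobin theta gene, 29.79. Dbi, the acyl-CoA-binding protein gene, had a peak of 29.27 at 13.9 kb, Dync2li1, a subunit gene of the ciliary dynein, 28.43 inside its span, and Map9, a microtubule-associated protein gene, 28.32 at 23.7 kb. Galntl6, C1d and Plcl1 followed with 28.32, 27.84 and 26.93. All 8 had WT FLAG, CTCF antibody, WT SMC3 and R448Q SMC3 peaks and were in all 7 other mutants. H455R SMC3 was present at 7 of the 8, the exception being Plcl1. Among R448Q-only peaks with no CTCF antibody peak the highest lay near Apba2, a neuronal adaptor gene (11.94), Etnk1, an ethanolamine kinase gene (9.83), and within Hnf4a, a nuclear receptor gene (9.14). Each of these 3 had WT FLAG and the FLAG peaks of all 7 other mutants.

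Against the whole R448Q list, H455R-only peaks seldom lay at CTCF sites of WT cells. WT FLAG lay at 41.9% of all H455R peaks, at 69.8% (67.8 to 71.8) of shared and 11.8% (10.4 to 13.3) of H455R-only peaks, a difference of 58.1 points (55.5 to 60.5). The treated CTCF antibody was at 52.0% of all, 86.6% of shared and 14.6% of H455R-only peaks, a difference of 72.0 points (69.7 to 74.1). Where an antibody peak was present at an H455R-only site it was weaker, with a median percentile of 68.0 against 94.8 at shared peaks. Off chromosome 8 the H455R-only shares were 20.5% for WT FLAG and 21.5% for the CTCF antibody, and the differences 53.8 (50.4 to 56.9) and 70.6 points (67.6 to 73.4). The gap was present at every strength: in the highest quartile of H455R values the antibody lay at 94.3% of 819 shared and 25.7% of 144 H455R-only peaks. The H455R-only levels depend on the length of the R448Q list. With equal numbers of top peaks, WT FLAG lay at 92.5% of shared and 23.7% of single-mutant H455R peaks. The treated CTCF antibody lay at 99.7% and 34.8%.

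R448Q-only peaks recurred in the other FLAG lists more than H455R-only peaks, but the class rule itself favours this order. R448Q-only peaks were in a mean of 4.04 of the 7 other mutant lists and H455R-only peaks in 0.431. By definition H455R-only peaks are absent from the 19403 R448Q peaks, of which 80.7% overlapped an R377C peak. R448Q-only peaks are absent from the 3855 H455R peaks, a much shorter list. How much of the contrast this rule and the list lengths set was not tested. Of the H455R-only peaks 1243 (67.1%) were in no other FLAG list, against 2384 (13.7%) of the R448Q-only peaks. Shared peaks are in another list by definition, so over whole lists these are 1243 of 3855 H455R and 2384 of 19403 R448Q peaks. Leaving out chromosome 8, the shares of single-mutant peaks were 51.2% and 12.2%. Leaving out chromosomes 1, 3, 8 and 11, they were 51.6% and 4.11%, so most R448Q-only peaks found in no other list lay on those chromosomes. On chromosome 8, 85.5% of H455R-only peaks were in no other FLAG list.

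Named H455R-only peaks were mostly absent from WT FLAG. The highest, with a value of 6.63 (rank 187 of the list), lay in Gcnt1, whose promoter is printed above. This peak had the CTCF antibody of WT cells and SMC3 in WT, R448Q and H455R cells, but no FLAG peak in any other mutant. Homer2, a postsynaptic scaffold gene, had a peak of 6.62 at a gene end with the same set of marks. Kif27, a kinesin gene, had 6.37 with the CTCF antibody and no SMC3, and Zc3h12a, the gene of an RNA-cleaving immune regulator, 5.47 at 25.7 kb with the CTCF antibody. Ak9, an adenylate kinase gene, had 5.35 with the CTCF antibody and 3 other mutants. The peaks near Olfr161, an odorant receptor gene (5.61), and Maf, a transcription factor gene (5.37), had no antibody, WT FLAG or SMC3 peak. Within Sema5a, a semaphorin gene, a peak of 5.46 overlapped WT FLAG but neither the CTCF antibody nor SMC3. The peak in Alk, a receptor tyrosine kinase gene, had 5.27 with no antibody or WT FLAG peak. The 218 H455R-only peaks at WT FLAG peaks carried the treated CTCF antibody in 7 cases (3.21%), and the highest after Sema5a, at Rdh14 (5.24), Marchf1 (5.07) and Scgb2b24 (4.84), had neither an antibody nor an SMC3 peak.

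**Figure D4:**
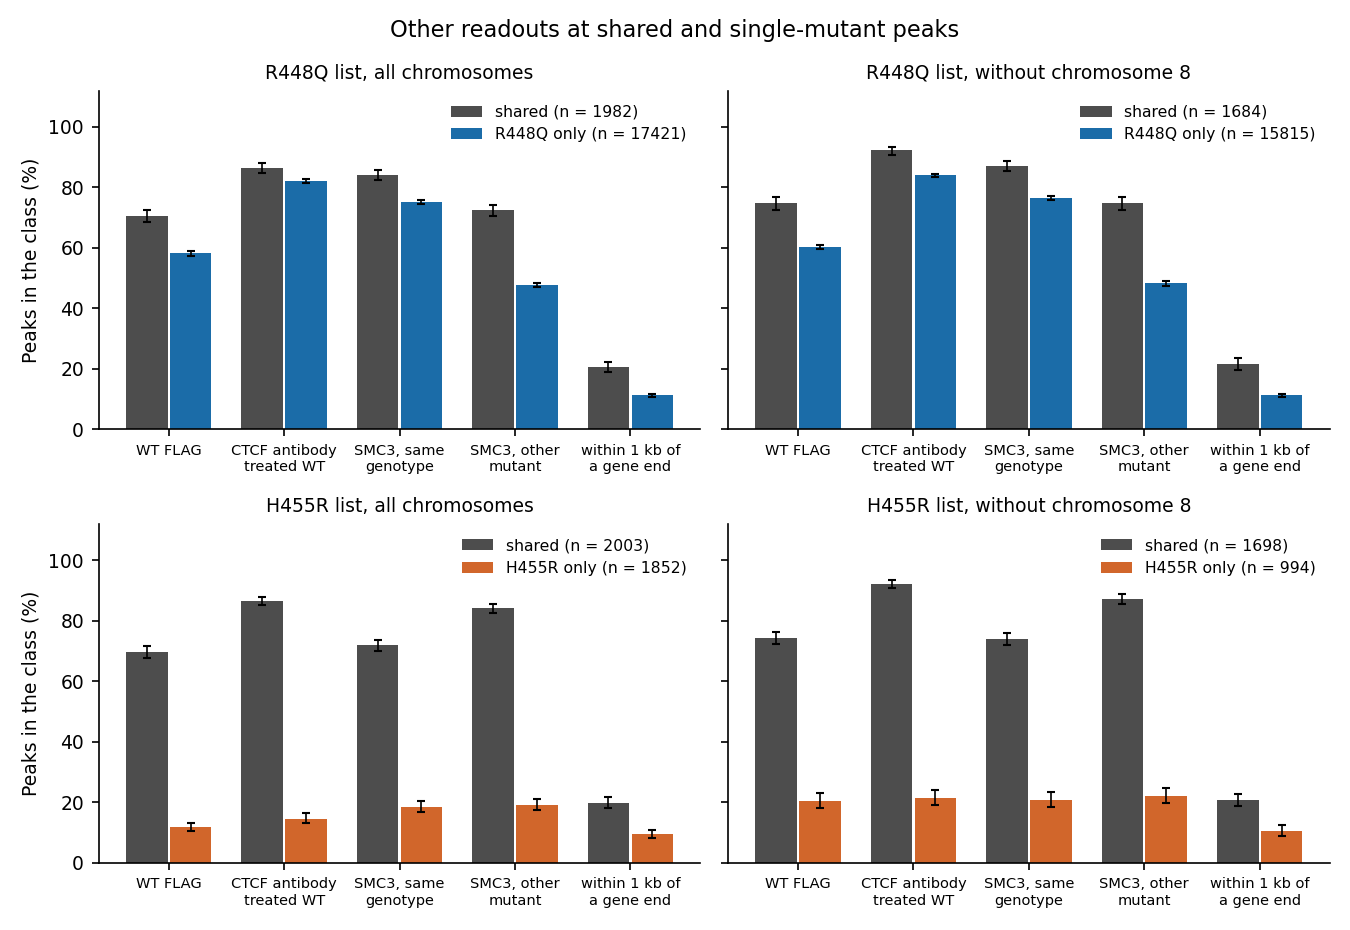
Percent of peaks (y axis) with each mark (x axis) at shared peaks (grey) and at single-mutant peaks of the R448Q list (blue, upper row) and the H455R list (orange, lower row), over all chromosomes (left) and without chromosome 8 (right); bars are 95% Wilson intervals over peaks. Over all chromosomes R448Q-only peaks lie below shared peaks by 12.3 points in WT FLAG, 4.43 in the CTCF antibody and 9.05 in SMC3 of R448Q cells. H455R-only peaks lie at 11.8% to 18.6% in the first 3 marks over all chromosomes.

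Cohesin lay at most shared and R448Q-only peaks and at few H455R-only peaks. In R448Q cells SMC3 peaks lay at 76.0% of all R448Q FLAG peaks, 84.1% (82.4 to 85.7) of shared and 75.1% (74.4 to 75.7) of R448Q-only ones, a difference of 9.05 points (7.26 to 10.7). In the highest quartile of R448Q values SMC3 was at 97.0% of shared and 98.1% of R448Q-only peaks, and averaged over quartiles the difference turned to -2.99 points. In H455R cells SMC3 lay at 46.3% of all H455R FLAG peaks, 71.9% (69.9 to 73.8) of shared and 18.6% (16.9 to 20.4) of H455R-only ones. That difference of 53.3 points (50.6 to 55.9) was 53.4 points (50.0 to 56.5) without chromosome 8. With equal numbers of top FLAG peaks, H455R SMC3 lay at 88.0% of shared and 31.2% of single-mutant H455R peaks. SMC3 peaks at shared H455R sites were also the higher ones, with a median percentile of 95.3 in the H455R SMC3 list against 73.0 at H455R-only sites.

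R448Q-only peaks often had cohesin in H455R cells, where a missing FLAG peak cannot be told from one below detection. H455R SMC3 peaks lay at 8313 of the 17421 R448Q-only FLAG peaks (47.7%, 47.0 to 48.5) and at 72.4% (70.4 to 74.3) of shared ones. The difference was 24.7 points (22.5 to 26.7), and 26.5 points without chromosome 8. By strength of the R448Q-only peak, the H455R SMC3 share was 28.5% in the lowest quartile and 79.5% in the highest. SMC3 was in both mutants at 47.3% of R448Q-only peaks, in R448Q alone at 27.8% and in neither at 24.5%. The R448Q SMC3 list is longer than the H455R list, at 153647 against 98168 peaks, and with the 98168 highest of each the R448Q-alone share was 25.2%. At the 1852 H455R-only peaks the H455R SMC3 list had a peak in 18.6%, the whole R448Q SMC3 list in 19% and its 98168 highest peaks in 15.7% (14.1 to 17.4), so the order of the mutants turned with the length of the list.

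Outside the WT FLAG list shared and single-mutant peaks differed more in cohesin in the R448Q list and less in the H455R list. At the 7289 R448Q-only peaks without a WT FLAG peak, R448Q SMC3 was at 45.6% and H455R SMC3 at 12.1%. At the 586 shared R448Q peaks without WT FLAG, these were 59.0% and 40.3%, and the treated CTCF antibody was at 71.5%. At the 1634 H455R-only peaks without WT FLAG, H455R SMC3 was at 18.1%, against 40.7% of the 604 shared ones, a difference of 22.7 points. The difference in SMC3 of the same genotype was 13.5 points outside and -1.64 points at WT FLAG peaks in the R448Q list, and 62.9 points at WT FLAG peaks in the H455R list.

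Over each whole list, shared peaks lay within 1 kb of a gene end more often than single-mutant peaks. Of all R448Q peaks 12.2% lay within 1 kb of either end of a protein-coding or lncRNA gene span, 20.6% (18.9 to 22.4) of shared and 11.2% (10.8 to 11.7) of R448Q-only ones, a difference of 9.35 points (7.56 to 11.2). Of all H455R peaks 14.8% did so, 19.9% (18.2 to 21.7) of shared and 9.40% (8.15 to 10.8) of H455R-only ones, a difference of 10.5 points (8.27 to 12.7). Without chromosome 8 the differences were 10.2 points in either list. In the R448Q list the difference averaged 6.97 points over quartiles of value, but it was -0.765 points (-3.90 to 3.48) in the lowest quartile. Gene bodies held similar shares of each class, 44.5% of shared and 46.8% of R448Q-only peaks, and intergenic positions 35.0% and 41.9%. The gene table gives no strand for spans, so starts and ends were not separated.

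The few H455R-only peaks at CTCF antibody sites differed from the rest of their class. These 315 of 1852 peaks lay at gene ends in 27.9% (23.3 to 33.1), above the 22.3% of shared H455R peaks at antibody sites, so that the gene-end difference turned to -5.65 points (-11.2 to -0.568) there. A further 51.7% lay in gene bodies and 20.3% were intergenic. WT FLAG was at 3.81% of them, H455R SMC3 at 41.3% and R448Q SMC3 at 46.3%. The 1537 H455R-only peaks outside both antibody lists lay at gene ends in 5.60%, against 3.82% of the shared H455R peaks there, so the gene-end difference of the whole H455R list was in neither of these subsets. They lay between genes in 50.9%, near the 50.5% of the 2996 R448Q-only peaks outside both lists.

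Seen from the 15392 WT FLAG sites, R448Q kept most and H455R few, and most that H455R kept were also kept by R448Q. Both mutants had a peak at 1394 WT sites (9.06%, 8.61 to 9.52), R448Q alone at 10182 (66.2%), H455R alone at 217 (1.41%) and neither at 3599 (23.4%). The median WT peak value was 4.86 at sites of both, 4.04 at R448Q-alone, 2.50 at H455R-alone and 2.83 at sites of neither. In the highest quartile of WT sites, both mutants were at 17.3%, R448Q alone at 80.0%, neither at 2.70%, and H455R alone at 0 of 3848, where 3 counts of 3848 would be a share of 0.0780% and the Wilson upper bound is 0.0997%. At the WT sites that R448Q alone occupied, SMC3 peaks were present at 88.8% in WT, 96.2% in R448Q and 73.3% in H455R cells. At the sites of neither mutant these were 61.1%, 63.1% and 35.8%. Without chromosome 8 the 4 shares were 8.65%, 65.8%, 1.40% and 24.2%.

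H455R sites overlapped the R448Q list more than any other FLAG list. After the 52.0% in R448Q came 43.6% in Q418R (42.1 to 45.2), 43.5% in R377C and 41.9% in WT, down to 23.0% in R339Q. The R448Q list is not the longest: Q418R and R377C have 30332 and 30462 peaks. With the 3855 highest peaks of each list the order began with R448Q at 26.6% (25.2 to 28.0), R377C at 21.2% (upper bound 22.5) and R377H at 20.7%. Without chromosome 8 the values were 63.1% in R448Q and 55.4% in R377C for whole lists, and 29.7% and 23.0% for the 2692 highest peaks. These lists share sites with one another, so the shares are not independent. In the reverse direction, over whole lists, R448Q peaks overlapped R377C most, at 80.7%, and H455R, the shortest list, least, at 10.2%. With the 3855 highest peaks of each list H455R was still lowest, at 26.1% (24.7 to 27.5), after 32.1% (30.6 to 33.6) in Q418R. With the 2692 highest peaks off chromosome 8 the H455R share was 29.2% (27.5 to 31.0). The lowest was then 28.3% (26.6 to 30.0), in Q418R, with overlapping intervals.

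**Figure D5:**
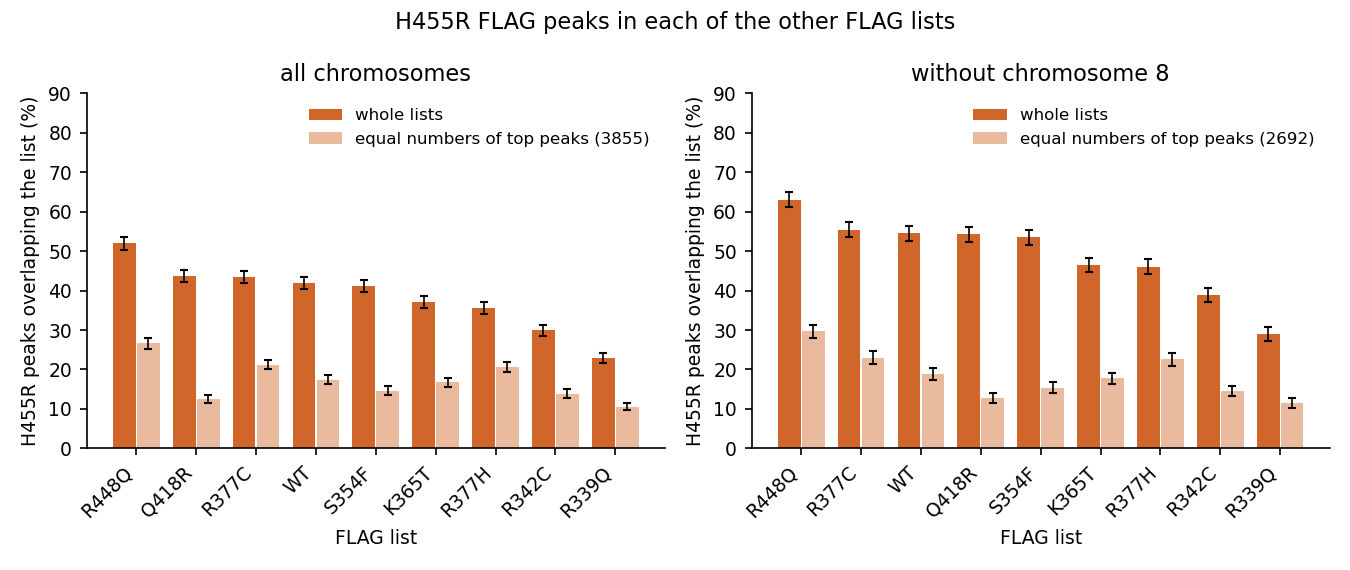
Percent of H455R FLAG peaks overlapping each of the 9 other FLAG lists (x axis), for whole lists (dark) and for equal numbers of the highest peaks (light), over all chromosomes (left) and without chromosome 8 (right); bars are 95% Wilson intervals. R448Q is highest in all 4 settings, at 52.0%, 26.6%, 63.1% and 29.7%.

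Nearness in the protein did not go with a single degree of overlap. Among the 3855 highest peaks of each list, 26.1% of R448Q peaks overlapped an H455R peak, while 55.2% (53.7 to 56.8) of R339Q peaks overlapped R342C and 77.4% (76.1 to 78.7) of R377C peaks overlapped R377H, a pair at the same residue. Without chromosome 8 the shares were 29.2%, 51.5% and 74.1%. List lengths differ among these pairs, and the top peaks of a short list reach lower in rank.

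Developmental and pluripotency genes were looked up within 10 kb. Of all 34610 gene spans, 6.25% had a shared peak within 10 kb, 32.2% an R448Q-only peak and 2.97% an H455R-only peak. Of the 39 Hox genes, the clustered regulators of body axis identity, 11 (28.2%) had a shared peak, 22 (56.4%) an R448Q-only peak and 0 an H455R-only peak. WT FLAG peaks were near 29 of the 39 (74.4%), against 32.4% of all gene spans, and neighbouring Hox genes share peaks. The strongest shared Hox peak by R448Q value served Hoxa10, Hoxa9, Hoxa7 and Hoxa3, with values of 8.97 in R448Q and 5.10 in H455R. The peak beside Hoxc10 ranked higher in H455R, at the 98.7 percentile (9.63) against 87.0 in R448Q (8.79). Hoxd10 had a shared peak inside its span without WT FLAG, at percentiles of 89.3 in H455R and 26.9 in R448Q, and an R448Q-only peak of 9.89 at 6.98 kb.

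The remaining lists are shorter. Of 24 pluripotency genes 2 (8.33%) had a shared peak, 11 (45.8%) an R448Q-only peak and 1 (4.17%) an H455R-only peak. Over all gene spans these shares were 6.25%, 32.2% and 2.97%. The shared peaks were inside Nr5a2, an orphan nuclear receptor gene (23.33 in R448Q, 5.97 in H455R), and 8.31 kb from Sox2, a core pluripotency factor (16.38 and 3.14). Sox2 had a second, R448Q-only peak of 8.90 at 1.77 kb. Esrrb, another orphan nuclear receptor gene of the naive state, had the H455R-only peak, of 2.32 at 4.15 kb. It had the CTCF antibody of WT cells and SMC3 of both mutants, but no WT FLAG. Of 30 imprinted genes 2 (6.67%) had a shared peak, 9 (30.0%) an R448Q-only and 2 (6.67%) an H455R-only peak. Meg3, a maternally expressed lncRNA, had a shared peak of 11.48 in R448Q and 4.29 in H455R, and also an H455R-only peak of 3.06, which lay 2.15 kb from Rtl1. Kcnq1 had a weak shared peak (3.18 and 2.93), and Kcnk9 the highest R448Q-only peak of the list, at 9.04.

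Among 16 genes of cohesin, its regulators and CTCF, 1 (6.25%) had a shared peak and 6 (37.5%) an R448Q-only peak. The highest R448Q-only peaks were at Hdac8, which deacetylates SMC3 (5.80), and Smc3 itself (5.60). Over all gene spans the shares were 6.25% for shared, 32.2% for R448Q-only and 2.97% for H455R-only peaks. Of the 16 neural genes 1 (6.25%) had a shared peak, inside Neurog2, a proneural factor (14.6 in R448Q and 2.82 in H455R). An R448Q-only peak lay near 4 (25.0%), the highest at Nes (8.42). Of 16 mesoderm and endoderm genes 2 (12.5%) had shared peaks, Mesp1 (3.13 and 2.67) and Hand2 on chromosome 8 (3.00 and 2.93). An R448Q-only peak lay near 7 (43.8%), led by Eomes (5.71). Of 10 trophoblast genes 2 had shared peaks, Cdx2 (4.44 and 3.24) and Tfap2c (4.07 and 2.71). Elf5 led the 5 with an R448Q-only peak (9.41), and Krt8 had the H455R-only peak (3.33). Of 12 germline genes 1 had a shared peak, Tex19.1 (4.65 in R448Q, no WT FLAG), and 1 an R448Q-only peak, Stra8 (3.29). The lists are short, and their counts are descriptions.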

How the data were processed

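The lists are BED files of 5 columns, the last a score that the authors deposited for each peak without naming the caller's measure behind it. Reads were processed against mm10, and the submitters' processing notes name the tools Bowtie2, Trim Galore, deepTools and MACS2; versions and options: not given in the sources used here. By title each list pools 2 replicates, yet peak names inside the FLAG lists of R448Q and H455R carry other replicate numbers, so the libraries behind a list are known from the title alone. The running peak numbers have gaps, 2.89% of them for R448Q and 5.26% for H455R, so some peaks were filtered out in a way not described. The read depth of a library is unknown.

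Intervals were intersected in Python (3.11.15) with pandas 2.3.3, numpy 2.4.6 and scipy 1.17.1; the overlap code was tested on simulated lists and against bedtools 2.31.1, and matplotlib 3.10.9 made the figures. Shares have 95% Wilson intervals and differences Newcombe intervals. Genes and promoter windows are those of RefSeq GRCm38.p6; all 163 listed genes matched. No genome was used, so the planned motif search around peak midpoints was replaced by promoter windows. Named peaks are the 8 strongest of each class by value (shared: by summed rank), the 4 strongest single-mutant peaks outside both CTCF antibody lists, the 4 strongest H455R-only peaks at WT FLAG, the 4 most discordant pairs each way, and the strongest peak per gene list and class, named by the nearest protein-coding gene. Not every peak under the rule is reported, and further list members were named after their values were seen. The comparison, lists and rules were chosen with earlier results of these data known. Alternatives were 50% reciprocal overlap, equal numbers of top peaks, a 500 bp slack, standardisation over quartiles of value, the untreated CTCF antibody list, equal SMC3 lists and a 5 kb gene window. Leaving out chromosome 8, leaving out chromosomes 1, 3, 8 and 11, and keeping only peaks at CTCF antibody peaks were chosen after seeing the data.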

Additional observations from a re-analysis of the deposited data

How the results depend on the processing

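Of 84 values under an alternative, 32 stayed within the interval or spread of the main value, 42 kept their direction and moved further, and 10 changed sign; the causes were not tested. No paired analysis was possible because each list pools its 2 replicates, and for the same reason none was left out. Differences below are shared minus single-mutant, in percentage points, and for strength in median peak value.

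With 50% reciprocal overlap the shared shares were 26.5% (H455R) and 5.27% (R448Q). In H455R strength was 1.01, WT FLAG 22.4, CTCF antibody 38.7 and SMC3 26.4; in R448Q strength was 1.17, SMC3 1.39, WT FLAG turned to -1.05 and the CTCF antibody to -2.24. With equal numbers of top peaks the shares were 26.6% and 26.1%. In H455R strength was 0.938, WT FLAG 68.8, CTCF antibody 64.9 and SMC3 56.8; in R448Q strength was 2.16, and WT FLAG turned to -1.55, the CTCF antibody to -0.0236 and SMC3 to -0.686. With peaks within 500 bp counted as shared, the shares were 53.7% and 11%, and in R448Q strength was 2.93, WT FLAG 7.87 and SMC3 7.18. Standardised over quartiles of value, the H455R CTCF antibody difference was 67.3, and in R448Q WT FLAG turned to -7.37, the CTCF antibody to -8.50 and SMC3 to -2.99, while gene ends gave 6.97. In a 5 kb window the H455R gene-end difference was 20.1.

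Without chromosome 8 the shares were 63.1% and 9.62%. H455R WT FLAG was 53.8; in R448Q strength was 3.84, WT FLAG 14.5 and the CTCF antibody 8.18. Without chromosomes 1, 3, 8 and 11 the shares were 59.5% and 11%, H455R strength was 0.763 and WT FLAG 54.9, and in R448Q WT FLAG was 5.48, SMC3 3.23 and the CTCF antibody turned to -0.341. At CTCF antibody peaks the H455R share was 84.7%, with strength 0.591, WT FLAG 70.8, SMC3 36.2 and gene ends turned to -5.65; in R448Q strength was 4.02, WT FLAG 5.93 and SMC3 3.48. Depth is unknown, so a peak missing from the shorter H455R list cannot be told from one below its detection.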

Other observations

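H455R-only peaks were also uneven within 2 further chromosomes. On chromosome 12, 54 of 98 (55.1%) lay in the first 30 Mb, against 25.4% of R448Q and 29.3% of WT FLAG peaks there. On chromosome 18 it was 54 of 87 (62.1%), against 21.1% and 29.4%. The H455R SMC3 list held 18% and 22.7% of its peaks of these chromosomes in that stretch, and the WT SMC3 list 20.3% and 23.8%. The stretch was chosen after the values were seen.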
